A study of Drosophila melanogaster with 399 samples.

Results

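The libraries described here are the control embryos of 2 ages, 12-14 h and 16-18 h after egg laying, in a survey of transcription factor (TF) function by RNA interference (RNAi) in Drosophila melanogaster. Their labels alone chose them: every library labelled as an mCherry control or as a Gal4-only control at either age was taken, which gave 52 of the 399 libraries of the series, 10 at 12-14 h and 42 at 16-18 h. Each library was the poly(A) RNA of pooled whole embryos from a 2 h egg collection, aged at 27 °C and sequenced. In the mCherry crosses, mothers carried the driver da-Gal4, in which the daughterless promoter gives broad expression, and fathers carried a UAS hairpin in the Valium20 vector, so that each embryo had 2 driver copies and 1 hairpin copy. That hairpin matches a fluorescent protein gene that flies lack, so no fly gene was targeted and there was no knockdown to check.

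The 12-14 h libraries came from 5 control sets, all of them mCherry, and the 16-18 h libraries from 21 sets, 19 of them mCherry. A set is a pair of libraries, numbered 1 and 2, and is named for the TFs whose knockdowns it served. The other 2 sets of 16-18 h are labelled da-Gal4 (for E5) and MTD-Gal4, a driver of the female germ line (for twi), and their labels give no hairpin. All 5 sets of 12-14 h were also sampled at 16-18 h: CG9876_Hr51, Ets65A_CG32006, Fer1_Camta_CG10209, onecut_scro_ss and zfh2_Sox102F_Hr3. Control libraries of 10-12 h (14 libraries, 7 sets) and of 14-16 h (6 libraries, 3 sets) are given beside these as levels only. None of these sets has a 12-14 h sample, and those of 10-12 h include the da-Gal4 set for E5. The study calls the libraries of a set biological replicates, but the labels do not say that they come from separate collections. The p-values therefore measure the spread between libraries, which may be partly technical. In the comparison over all control libraries each library counts as independent, so its p-values leave out traits that libraries of a set share.

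Between these ages the embryo turns from building organs to making them work. The epidermis secretes the larval cuticle in layers, first an outer envelope and epicuticle and then a chitin-rich procuticle, which is later tanned. The midgut starts to make digestive enzymes, body wall muscles complete their sarcomeres and begin to contract, and neurons extend axons, form synapses and start to make transmitters and peptide hormones. In RNA from whole embryos, fewer cells of a type and less RNA per cell cannot be told apart.

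The comparison asked which genes of the late embryo change in level between the ages. Levels are in counts per 1000000 (CPM) after scaling for library composition, and a fold change is 16-18 h over 12-14 h on the log2 scale with its standard error (SE). A gene was called higher or lower where its Benjamini-Hochberg adjusted p from edgeR's quasi-likelihood test was at most 0.1 and its log2 fold change was at least 1 in size. Of 11665 genes tested, 1784 (15.3%) were higher and 1053 (9.03%) were lower at 16-18 h. Another 4877 genes passed the adjusted p but changed by less than 2-fold. Across all genes tested the median log2 fold change was -0.04, and it moved by -0.18 where libraries were scaled by their totals alone. Under that scaling 53% of the calls were higher, against 62.9% here. For 328 genes (2.81%) the CPM of all 42 libraries of 16-18 h lay above that of all 10 libraries of 12-14 h, and for 373 genes (3.2%) it lay below; such genes are described here as not overlapping.

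The libraries held 42950492 to 71530628 reads on genes at 12-14 h (median 56767800) and 18372459 to 100712621 at 16-18 h (median 52404748). To place each library in age from libraries outside the comparison, an index was built from genes called between the same ages in knockdown embryos (mean log2(CPM + 1) of 1914 genes higher at 16-18 h minus that of 909 lower). These knockdowns were of the TFs that the 5 control sets of 12-14 h served, so they may share traits with those sets. All 42 libraries of 16-18 h, from 1.48 to 2.83, lay above all 10 of 12-14 h, from -1.70 to 0.41. The value of 0.41 belonged to 1 library, CG9876_Hr51 number 1, and the next highest of 12-14 h was -1.06. That library also had the highest 12-14 h sums of gut, V-ATPase and glycolysis genes. A second departure was egg RNA: bcd, a maternal RNA, ran from 13.9 to 194 CPM at 12-14 h and from 14.4 to 541 CPM at 16-18 h, with its highest value at each age in the zfh2_Sox102F_Hr3 set. That set also carried pgc and osk, RNAs of the pole plasm, whose calls as lower (-1.42 and -1.69) rested on it: without that set their log2 fold changes were 1.34 and 0.42. It also had the cell cycle RNA CycB at 2776 and 2773 CPM at 12-14 h, against 230.2 to 1665 CPM in the other 8 libraries. In all, 10 libraries had a median correlation under 0.96 with the others of their age: 3 of 12-14 h (CG9876_Hr51 number 1 and the zfh2 pair) and 7 of 16-18 h (the zfh2, E5 and twi pairs and CG34376_rgr_slou number 1). Without those libraries 1832 genes were higher and 1270 lower, with 1694 and 991 calls shared with the full comparison, 17 of 17 Osiris genes lower, 26 of 27 gut proteases higher and 28 of 42 neuropeptides higher. With the bcd level as a covariate the calls were 1836 and 1031. Genes of the eggshell and yolk, which mark adult females, summed to 2.96 CPM at most.

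**Figure D1:**
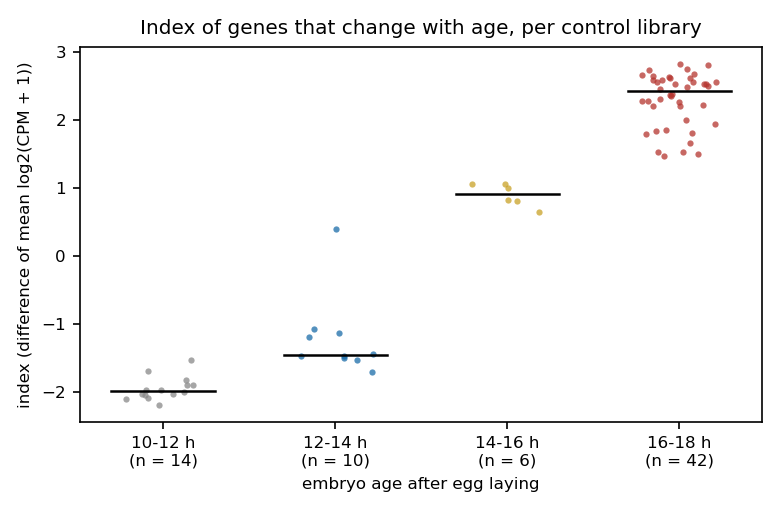
Expression index of each control library (points; y axis, difference of mean log2(CPM + 1) between genes called higher and genes called lower in knockdown embryos) by age in hours, with the median of each age as a bar. All 42 libraries of 16-18 h lie above all 10 of 12-14 h, and 1 library of 12-14 h, at 0.41, lies apart from the other 9 of its age.

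Of the gene lists, Osiris and Tweedle proteins of the larval cuticle had the lowest median fold changes. Osiris proteins, a family of membrane proteins of cells that secrete cuticle, fell together: of 25 members 17 had enough reads to test, and all 17 were lower, against 9.03% of all genes, with a median log2 fold change of -4.82 against -0.04 over all genes. Osi20 had a lowest, median and highest level of 256, 778 and 1386 CPM at 12-14 h, and of 0, 2.86 and 104 CPM at 16-18 h. Every library of 16-18 h was below every library of 12-14 h, with a log2 fold change of -5.97 ± 0.70 (log2, SE; edgeR adjusted p = 1.0e-10). Osi6 and Osi7 were already lower at 12-14 h (means of 1241 and 795 CPM) than in the other control sets of 10-12 h (6585 and 4623 CPM). Osi20, Osi19, Osi15, Osi10a and Osi2 had their highest means at 12-14 h. Osi10a was not called without the Ets65A_CG32006 set (-0.95). By 14-16 h Osi20 was at 9.25 CPM on average, against 13.8 CPM at 16-18 h.

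Summed over the family, Osiris RNA was 1181 to 9006 CPM at 12-14 h (median 6164), 51.1 to 300.0 CPM at 14-16 h (median 109.5) and 6.53 to 1239 CPM at 16-18 h (median 66.3). A single library of 16-18 h, fd59A_caup number 1 at 1239 CPM, reached into the 12-14 h range, whose lowest value of 1181 CPM was again CG9876_Hr51 number 1. The ratio of 12-14 h to 16-18 h in set means ranged from 18 in the Ets65A_CG32006 set to 492 in the Fer1_Camta_CG10209 set, and the direction was the same in all 5 sets. Most members lie side by side: 22 of them sit in a 168 kb stretch at chr3R:6173549-6341424 (BDGP6, the dm6 assembly), where 17 were lower and 5 had too few reads to test. Of the 5 other protein-coding genes tested in that stretch, 3 were also lower and 1 was higher.

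**Figure D2:**
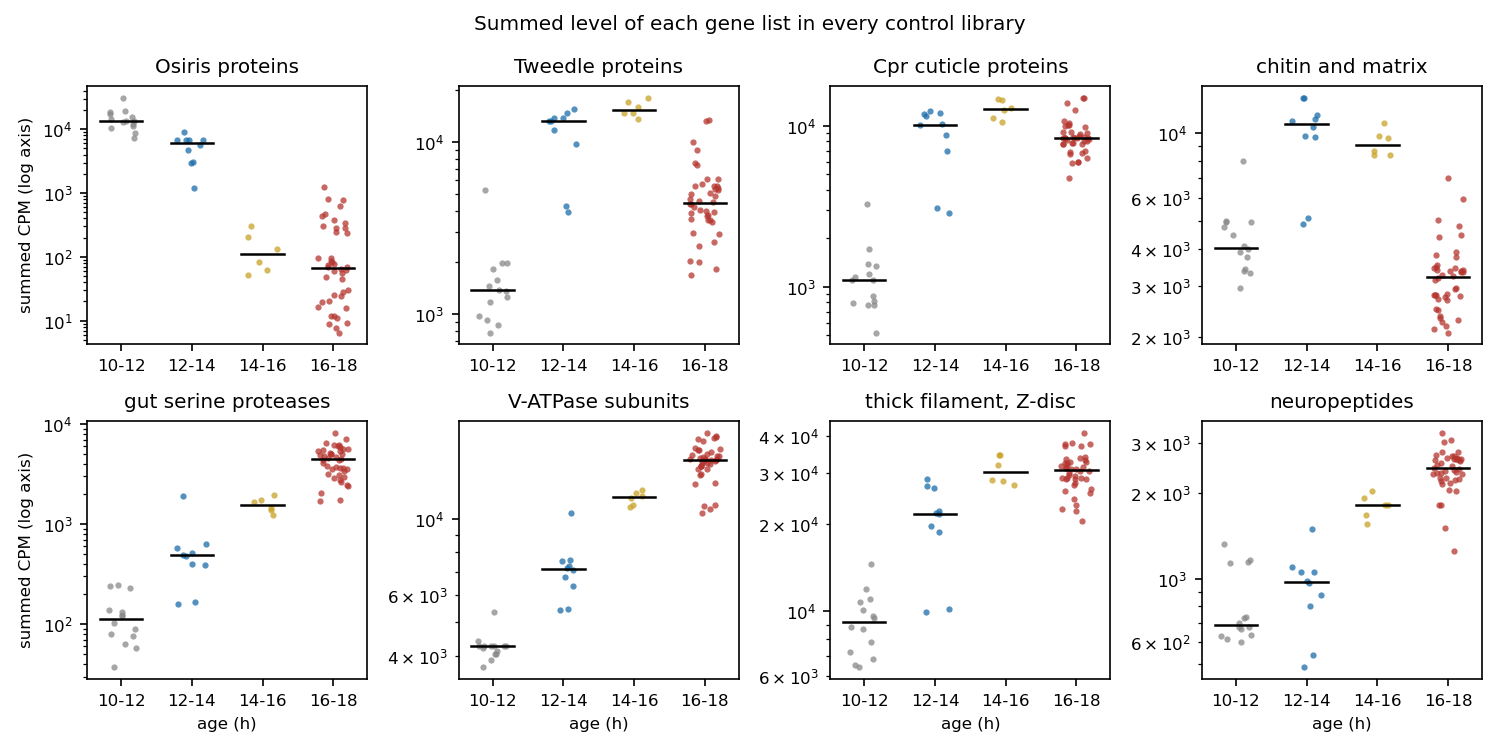
Summed CPM (y axes, logarithmic) of 8 gene lists in every control library (points) at 10-12, 12-14, 14-16 and 16-18 h, with the median of each age as a bar. Osiris RNA falls from a median of 6164 CPM at 12-14 h to 66.3 CPM at 16-18 h, while gut serine proteases rise from a median of 489.3 CPM to 4440 CPM.

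Tweedle proteins, which are structural proteins of the insect cuticle, were lower in 20 of 26 genes and higher in 4, with a median of -3.46. Over all genes tested 9.03% were lower and 15.3% higher. TwdlF had a lowest, median and highest level of 332, 1220 and 2404 CPM at 12-14 h and of 0.118, 6.08 and 166 CPM at 16-18 h. Its libraries did not overlap between the ages, and it fell, at -6.01 ± 0.65 (edgeR adjusted p = 9.1e-12). TwdlD went from a median of 2420 to 16.2 CPM and also did not overlap. TwdlM and TwdlL were lower at 16-18 h as well (log2 fold changes -1.79 ± 0.36 and -1.14 ± 0.32), but their highest means were at 14-16 h (4415 and 1898 CPM), above both ages compared. TwdlB peaked there too, at 2876 CPM, and did not pass the fold threshold between 12-14 h and 16-18 h (-0.81 ± 0.34). For TwdlL and TwdlB the call changed between fits. TwdlL was at -0.97 without CG9876_Hr51, at -0.99 without onecut_scro_ss and at -0.37 in the knockdown embryos. TwdlB was called at -1.08 without zfh2_Sox102F_Hr3, at -1.09 with mCherry controls alone and at -1.27 without the libraries that stand apart.

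The 4 members that rose were TwdlO, Twdlalpha, TwdlP and TwdlN. TwdlN had a lowest, median and highest level of 209, 804 and 2762 CPM at 12-14 h and of 1076, 2795 and 7006 CPM at 16-18 h, a rise of 1.63 ± 0.26 with overlapping ranges, and its mean at 14-16 h was higher still (4032 CPM). TwdlO rose the most, by 3.90 ± 0.58 from a median of 0.284 to 11.7 CPM (edgeR adjusted p = 4.7e-08). Neighbours did not all move alike: in the cluster of 12 Tweedle genes at chr3R:26619118-26641054, 3 were higher and 7 lower, while all 4 at chr3R:4243606-4255833 were lower. Summed over the family, Tweedle RNA had medians of 13236 CPM at 12-14 h, 15423 CPM at 14-16 h and 4428 CPM at 16-18 h, and 16 of the 42 libraries of 16-18 h were below all 10 of 12-14 h. In the zfh2_Sox102F_Hr3 set its mean was 4116 CPM at 12-14 h and 4236 CPM at 16-18 h, against a 1.85-fold to 4.23-fold fall in the other 4 sets.

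Proteins with the Rebers and Riddiford chitin-binding domain (Cpr proteins, with the Lcp, Ccp and Edg genes), the main structural proteins of the procuticle, moved in both directions. Of 85 tested among 99, 29 were higher and 24 lower, against 15.3% and 9.03% of all genes, with a median of -0.02. The split depended on the samples and scaling: it was 27 higher and 30 lower with library totals, 27 and 31 without the 10 libraries that stand apart, 33 and 24 without the CG9876_Hr51 set, and 38 and 20 of 84 (median 0.73) in the knockdown embryos of the same ages. Among those that fell, Cpr65Eb had a lowest, median and highest level of 70, 157 and 213 CPM at 12-14 h and of 0, 0.766 and 19.5 CPM at 16-18 h (-5.72 ± 0.59), and Cpr65Ea went from a median of 1872 to 24.4 CPM. Cpr51A and Cpr64Ad fell in the same way, also with no overlap between the ages. Among those that rose, Cpr47Eg had 77.9, 219 and 1265 CPM at 12-14 h and 1088, 2233 and 4001 CPM at 16-18 h (2.87 ± 0.28, edgeR adjusted p = 4.6e-13), and 40 of the 42 later libraries were above all 10 earlier ones.

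The levels of the 4 ages show that Cpr genes peaked at different times. The highest mean was at 10-12 h for 4 of the 85 genes, at 12-14 h for 18, at 14-16 h for 43 and at 16-18 h for 20. The corresponding counts for 26 Tweedle genes were 0, 15, 9 and 2, and for 17 Osiris genes 12, 5, 0 and 0. All 3 genes of chr3L:7086003-7093841 (Cpr65Ea, Cpr65Eb and Cpr65Ec) were lower, 6 of 7 at chr2R:11251751-11278445 (the Cpr47E group) were higher, and the Lcp65A group of 19 at chr3L:6130386-6161589 had 9 higher, 2 lower and 5 not tested. In the Ccp84A cluster of 8 genes at chr3R:6684445-6704903, 4 were lower and none was higher. Copies such as Cpr65Ax1 and Cpr65Ax2, or Lcp65Ag1, Lcp65Ag2 and Lcp65Ag3, are so alike that reads matching several of them may have been left out, so the value of each is uncertain.

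**Figure D3:**
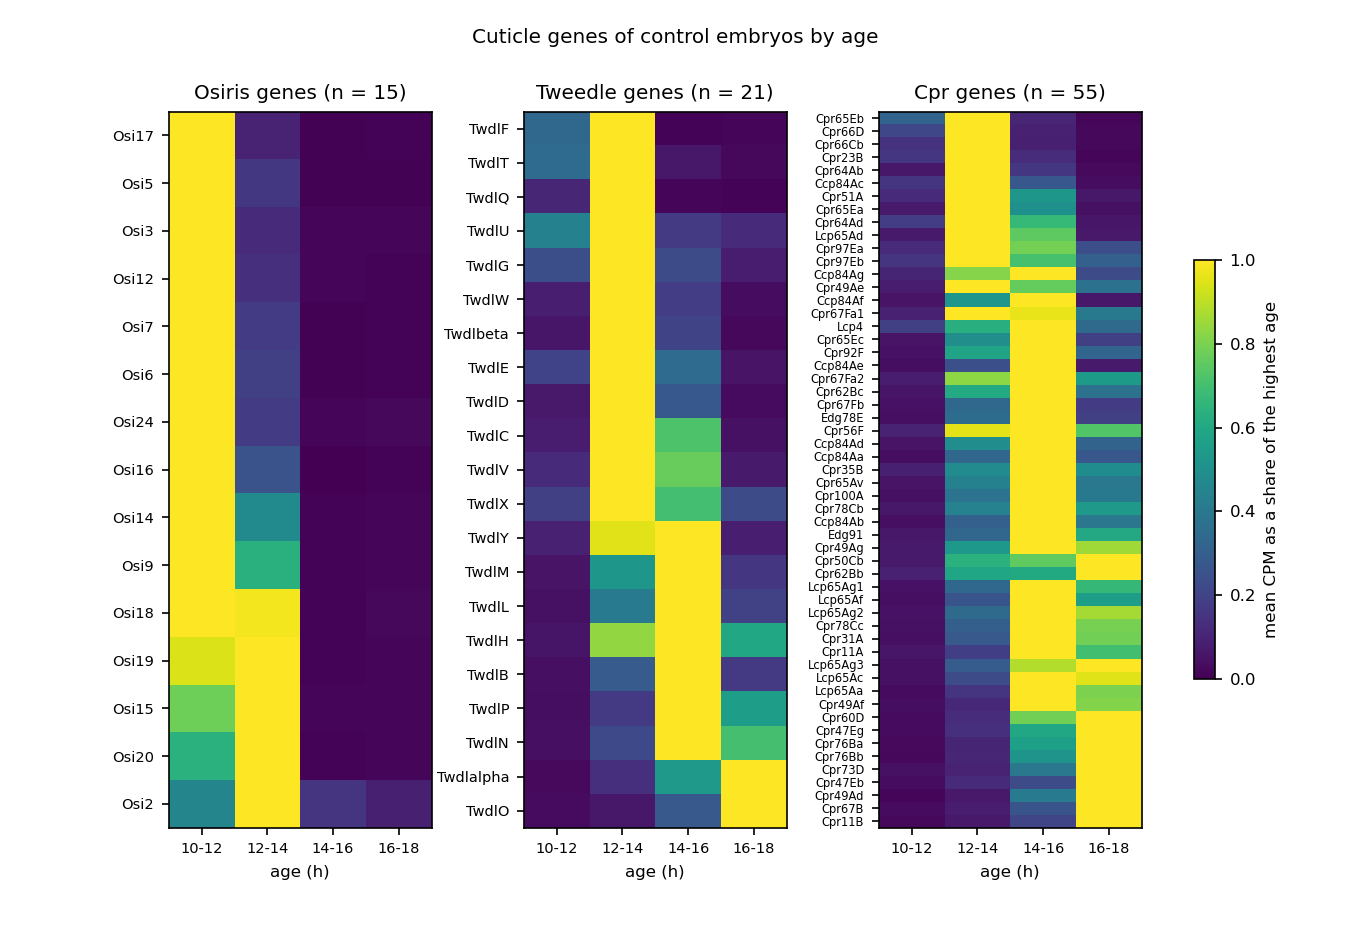
Mean CPM of Osiris (15 genes), Tweedle (21) and Cpr (55) genes with a mean of at least 10 CPM at some age, each drawn as a share of its own highest age (colour), at 10-12, 12-14, 14-16 and 16-18 h (x axis). The bright cells run from the earliest ages in Osiris genes to 14-16 and 16-18 h in many Cpr genes. The 10-12 h and 14-16 h values come from other control sets than the 12-14 h values.

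Enzymes and binding proteins that build and shape chitin were mostly lower. Of 22 genes, 12 were lower and 2 higher, against 9.03% and 15.3% of all genes, with a median of -1.29. Gasp and obst-A, secreted proteins that bind chitin, fell, at -3.88 ± 0.16 and -4.03 ± 0.21. Gasp had a lowest, median and highest level of 715, 1546 and 2200 CPM at 12-14 h and of 56.8, 90.2 and 277 CPM at 16-18 h, with no overlap (edgeR adjusted p = 5.2e-27). The chitin deacetylases serp and verm, which trim chitin in the trachea and epidermis, fell, at -2.42 ± 0.15 and -2.03 ± 0.12, also with no overlap. The chitin synthase kkv did not pass the fold threshold (-0.90 ± 0.13), but passed it narrowly without the zfh2_Sox102F_Hr3 set. In the opposite direction moved Cht5, a chitinase used in moulting, with 11.2, 18 and 147 CPM at 12-14 h and 154, 266 and 429 CPM at 16-18 h (3.08 ± 0.28), and the deacetylase Cda9 (2.42 ± 0.27). All 42 later libraries exceeded the 10 earlier ones for Cht5.

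Zona pellucida (ZP) domain proteins, which hold the apical surface of epidermal cells to the matrix, were lower in 6 of 11 genes and higher in 1. The ZP gene nyo was already far below its 10-12 h mean by 12-14 h and went from 253 to 16.5 CPM, and then to 3.72 CPM at 16-18 h. The member that rose was pio, of the tracheal lumen (1.30 ± 0.15). Enzymes of cuticle tanning and their yellow relatives were split, 4 higher and 4 lower of 19, against 15.3% and 9.03% of all genes. Tyrosine hydroxylase (ple), the first enzyme of the dopamine route used in tanning and in neurons, rose from a median of 32.4 to 71.4 CPM (1.21 ± 0.16, or 0.97 and not called within the 5 sets sampled at both ages), and yellow-d rose more (2.23 ± 0.21). Ddc and y were not called (0.15 ± 0.16 and 0.31 ± 0.16), and both had their highest means at 14-16 h (173 and 338 CPM).

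Of the gene lists, gut serine proteases and the lysozymes and peritrophic matrix proteins had the highest median fold changes. Of 27 tested serine proteases of the Jonah (Jon) and trypsin (Try) families, digestive enzymes of the midgut, 26 were higher and none was lower. The median was 3.88, and 15.3% of all genes were higher. Jon25Biii had a lowest, median and highest level of 24.7, 38.1 and 238 CPM at 12-14 h and of 311, 634 and 1203 CPM at 16-18 h, with no overlap between the ages (3.42 ± 0.28, edgeR adjusted p = 1.2e-15). Jon99Ciii rose by 4.51 ± 0.44 and alphaTry by 4.01 ± 0.38. The exception was Try29F, at -0.39 ± 0.38, whose highest mean was at 14-16 h (535 CPM). The trypsin cluster at chr2R:11336840-11357537 had 10 of its 11 genes higher and 1 not tested, and all members of the Jon25B, Jon65A and Jon99C clusters were higher. Many of these genes are close copies, so the value of a single gene is uncertain.

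That sum was 161 to 1908 CPM at 12-14 h (median 489), 1237 to 1945 CPM at 14-16 h (median 1559) and 1699 to 8224 CPM at 16-18 h (median 4440). The 12-14 h maximum was CG9876_Hr51 number 1, and the next library of that age had 635.3 CPM. All 5 sets rose, by 4.59-fold in the CG9876_Hr51 set and by 8.67-fold to 13.4-fold in the other 4. The highest sum of 14-16 h, 1945 CPM, was exceeded in every library of 16-18 h but the zfh2_Sox102F_Hr3 pair.

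Among 20 carbohydrases, 10 were higher and none was lower (median 0.95), against 15.3% and 9.03% of all genes. The maltase Mal-A1 had 3.67, 7.98 and 67.4 CPM at 12-14 h and 96.2, 162 and 232 CPM at 16-18 h with no overlap (3.49 ± 0.28), and the amylase Amy-p and the mannosidase LManVI rose by 3.65 ± 0.32 and 3.51 ± 0.32. Among 13 lysozymes and proteins of the peritrophic matrix, the chitin sheath that lines the gut, 9 were higher and 1 was lower, with a median of 3.84. Peritrophin-15a rose from a median of 1.25 to 49.6 CPM (4.09 ± 0.42), while Peritrophin-A fell, at -1.18 ± 0.11 and was at -0.95 without the Ets65A_CG32006 set. Of 12 TFs of midgut formation none was called in either direction by edgeR (median -0.08) and none by DESeq2; 6 had an unadjusted p under 0.05, and 2 higher and 4 lower passed the adjusted p with less than a 2-fold change.

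Subunits of the vacuolar proton pump (V-ATPase), which acidifies organelles and the gut lumen and drives ion transport in Malpighian tubules, had log2 fold changes from -0.48 to 1.45. Of 21 tested, 12 were higher, against 15.3% of all genes, and none was lower, with a median of 1.06. Without the zfh2_Sox102F_Hr3 set 5 were higher. Vha44 had 146, 229 and 403 CPM at 12-14 h and 433, 695 and 912 CPM at 16-18 h with no overlap (1.45 ± 0.12, edgeR adjusted p = 1.3e-15). The subunits with the lowest fold changes were VhaM9.7-c, Vha100-1 and VhaM9.7-a, at -0.48 ± 0.11, -0.22 ± 0.10 and 0.16 ± 0.12.

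**Figure D4:**
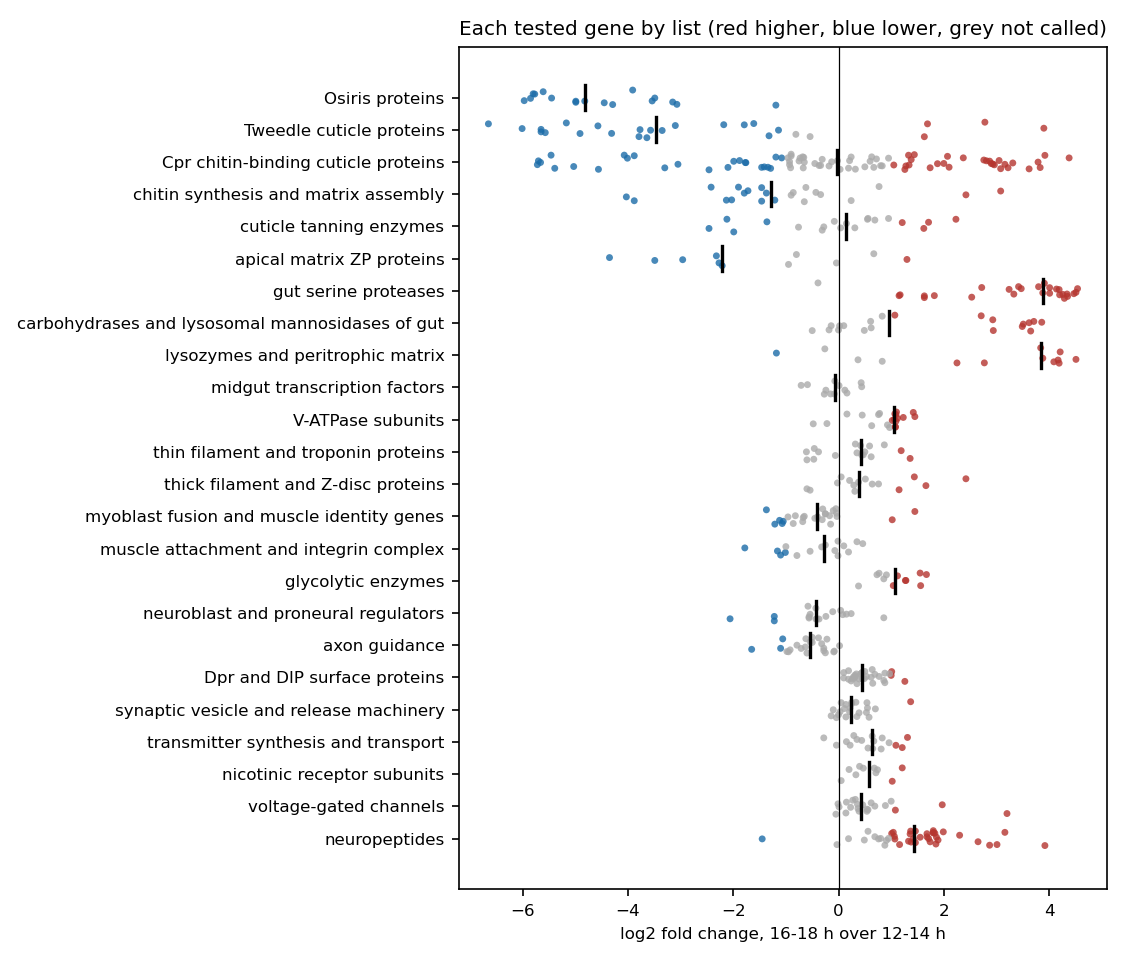
Log2 fold change (x axis, 16-18 h over 12-14 h) of every tested gene of 24 lists (points; red called higher, blue called lower, grey not called), with the median of each list as a black bar. Osiris and Tweedle genes lie far to the left, gut proteases and lysozymes far to the right, and most muscle and synapse genes lie within 1 of 0.

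Most structural genes of muscle changed by less than 2-fold between 12-14 h and 16-18 h. Of 17 thin filament proteins 2 were higher and none was lower (median 0.42), and of 15 thick filament and Z-disc proteins 4 were higher and none was lower (median 0.38). Among all genes tested, 15.3% were higher. At any size of change, 10 of the thin filament genes passed the adjusted p as higher and 4 as lower. Of the thick filament and Z-disc genes 10 passed it as higher and 2 as lower. Mhc, the myosin heavy chain, had 2329, 6072 and 8327 CPM at 12-14 h and 2092, 7612 and 13302 CPM at 16-18 h, so that the range of 12-14 h lay inside that of 16-18 h (0.31 ± 0.16, edgeR adjusted p = 0.079). Its mean was 2630 CPM at 10-12 h and 5995 CPM at 12-14 h. The giant proteins sls and bt, which span the sarcomere, were at -0.54 ± 0.13 and 0.05 ± 0.14.

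The 6 filament genes that were higher have different places in the sarcomere. Zasp66, a PDZ-domain protein of the Z-disc whose gene overlaps Cdc6, had 80.9, 203 and 704 CPM at 12-14 h and 771, 1366 and 1786 CPM at 16-18 h, with no overlap (2.42 ± 0.19, edgeR adjusted p = 2.8e-16). Zasp52 rose by 1.66 ± 0.15, the myofilin gene Mf by 1.44 ± 0.14, and Unc-89, the obscurin of the M-line, by 1.15 ± 0.21 (0.93 and not called without the zfh2_Sox102F_Hr3 set). TpnC25D, a troponin C, rose by 1.36 ± 0.17, and fln, which encodes the myosin-binding protein flightin but was counted on the thin filament list, by 1.19 ± 0.22. Of 8 genes of calcium handling none was called by edgeR or DESeq2; 3 had an unadjusted p under 0.05, and 4 passed the adjusted p with less than a 2-fold change, 2 in each direction. The calcium pump SERCA, at 0.94 ± 0.14, came closest to the fold threshold and passed it, at 1.01 to 1.10, without the CG9876_Hr51, Ets65A_CG32006 or Fer1_Camta_CG10209 set.

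Of 25 genes of myoblast fusion and muscle identity, 5 were lower (hbs, blow, sing, nau and tin), against 9.03% of all genes, and 2 were higher, against 15.3%. Those 2, jeb and Alk (1.45 ± 0.19 and 1.02 ± 0.18), are a ligand and its receptor in the visceral mesoderm that also act in neurons. The muscle regulator Mef2 had overlapping ranges and a log2 fold change of -0.04 ± 0.11. The gene sr, which encodes the TF of tendon cells, had 25.2, 39.2 and 48.8 CPM at 12-14 h and 5, 11.3 and 16.6 CPM at 16-18 h with no overlap (-1.78 ± 0.11), and the laminin chains LanB2 and LanA were lower, at -1.10 ± 0.13 and -1.01 ± 0.13. Integrin and collagen genes did not pass the fold threshold. These lower calls lay near it: without the Ets65A_CG32006 set or without the Fer1_Camta_CG10209 set, 2 of the fusion and identity genes were lower and sr alone of the attachment genes, and without the zfh2_Sox102F_Hr3 set Alk was at 0.86.

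Of 12 glycolytic enzymes 7 were higher, against 15.3% of all genes, and none was lower. Their median was 1.08, and all 12 had their highest mean at 16-18 h. Pgi had 99.1, 123 and 244 CPM at 12-14 h and 226, 448 and 533 CPM at 16-18 h (1.67 ± 0.13), with 41 of 42 later libraries above all earlier ones. PyK, the pyruvate kinase, rose by 1.56 ± 0.13, and Ldh, which makes lactate, by 1.27 ± 0.14. Subunits of oxidative phosphorylation encoded in the nucleus changed by less: none of 67 was called by edgeR at the fold threshold, their median was 0.55, and 66 had their highest mean at 16-18 h. DESeq2 called none either; 65 had an unadjusted p under 0.05, and 65 passed the adjusted p as higher with less than a 2-fold change.

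Of 18 neuroblast and proneural genes 3 were lower and none was higher, against 9.03% and 15.3% of all genes. The gene insc, which orients neuroblast division, had 21.9, 33.8 and 47.4 CPM at 12-14 h and 5.02, 8.28 and 13.9 CPM at 16-18 h with no overlap (-2.06 ± 0.10, edgeR adjusted p = 3.9e-24), and mira and tap, which act in neural precursors, were lower, at -1.22 ± 0.20 and -1.22 ± 0.13. Of 23 axon guidance genes 3 were lower (robo2, sli and comm), against 9.03% of all genes, and none was higher, with a median of -0.54. robo2 fell from a median of 79.4 to 30.8 CPM, at -1.65 ± 0.16. In 21 of the 23 the highest mean was at 10-12 h. At any size of change, 17 of the 23 passed the adjusted p as lower and none as higher. Of the 18 neuroblast and proneural genes 10 passed it as lower and 1 as higher. The count of lower axon guidance genes was 1 without the Ets65A_CG32006 set or the Fer1_Camta_CG10209 set and 6 without the zfh2_Sox102F_Hr3 set, and mira was at -0.96 without Ets65A_CG32006.

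Of 22 genes of synaptic vesicles and release, Snap25 was the only one called (1.37 ± 0.19), and the list's median was 0.24. brp, the active zone scaffold, had 96, 198 and 275 CPM at 12-14 h and 43, 181 and 324 CPM at 16-18 h, so that the range of 12-14 h lay inside that of 16-18 h (-0.10 ± 0.16), and 16 of the 22 genes had their highest mean at 14-16 h. Of 17 genes of transmitter synthesis and transport 3 were higher and none was lower, where 15.3% of all genes were higher. These 3 were ChAT (acetylcholine) at 1.31 ± 0.17, ple (dopamine, also on the tanning list) at 1.21 ± 0.16 and Gad1 (GABA) at 1.09 ± 0.15. The gene of the vesicular acetylcholine transporter lies inside that of ChAT, so reads of the pair may not be separable. Of 32 dpr and DIP genes, which encode surface proteins that pair synaptic partners, 3 were higher and none was lower (median 0.45). Most changes were smaller than 2-fold: 24 of the 32 passed the adjusted p as higher and none as lower. Of the 22 synaptic genes 10 passed it as higher and none as lower, and of the 17 transmitter genes 13 as higher and 1 as lower. Without the zfh2_Sox102F_Hr3 set Gad1 was at 0.92 and 1 gene of the dpr and DIP list was higher, and without Ets65A_CG32006 or CG9876_Hr51 6 or 5 of them were. Without CG9876_Hr51, 5 of the transmitter genes were higher.

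Of 10 nicotinic receptor subunits 2 were higher, of 29 other transmitter receptors 4 were higher and 1 was lower, and of 22 voltage-gated and related channels 3 were higher, against 15.3% of all genes. At any size of change, 9 of the 10 nicotinic subunits and 17 of the 22 channels passed the adjusted p as higher and none as lower. Of the 29 other receptors 21 passed it as higher and 5 as lower. The octopamine receptors Octbeta2R and Octbeta1R rose by 1.73 ± 0.17 and 1.58 ± 0.19, and the potassium channel gene Sh by 1.08 ± 0.17. Irk2, an inward rectifier potassium channel, had 5.41, 13.2 and 95 CPM at 12-14 h and 98.1, 199 and 258 CPM at 16-18 h with no overlap (3.20 ± 0.27, edgeR adjusted p = 1.9e-15). GluRIID, a subunit of the glutamate receptor of the neuromuscular junction, was the receptor that fell (-1.22 ± 0.10, with no overlap); its gene overlaps GluRIIE, which makes its count uncertain. Without the zfh2_Sox102F_Hr3 set, 1 nicotinic subunit and 2 other receptors were higher and Sh was at 0.94, while 5 channels were higher without the CG9876_Hr51 set.

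Most neuropeptide genes rose. Of 42 tested, 31 were higher and 1 was lower, against 15.3% and 9.03% of all genes. Their median was 1.44, and 39 had their highest mean at 16-18 h. CCHa2, a peptide of gut and fat body, had 3.03, 5.09 and 8.8 CPM at 12-14 h and 11.2, 19.4 and 27.2 CPM at 16-18 h with no overlap (1.85 ± 0.14, edgeR adjusted p = 3.1e-17). Proc and Dsk, a myotropic peptide and a cholecystokinin relative, did not overlap either (1.46 ± 0.13 and 2.65 ± 0.23). The peptides of ecdysis, Eh and ETH, rose by 1.07 ± 0.15 and 1.01 ± 0.14, and the insulin-like peptide Ilp2 by 3.01 ± 0.27 from a median of 0.745 to 9.14 CPM. Ilp4, which is made by the embryonic mesoderm and midgut, was the member that fell (-1.45 ± 0.18). The summed level rose in all 5 sets, by 2.05-fold to 2.68-fold. Without the zfh2_Sox102F_Hr3 set 26 neuropeptide genes were higher, and Eh and ETH, at 0.91 and 0.84, were not.

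**Figure D5:**
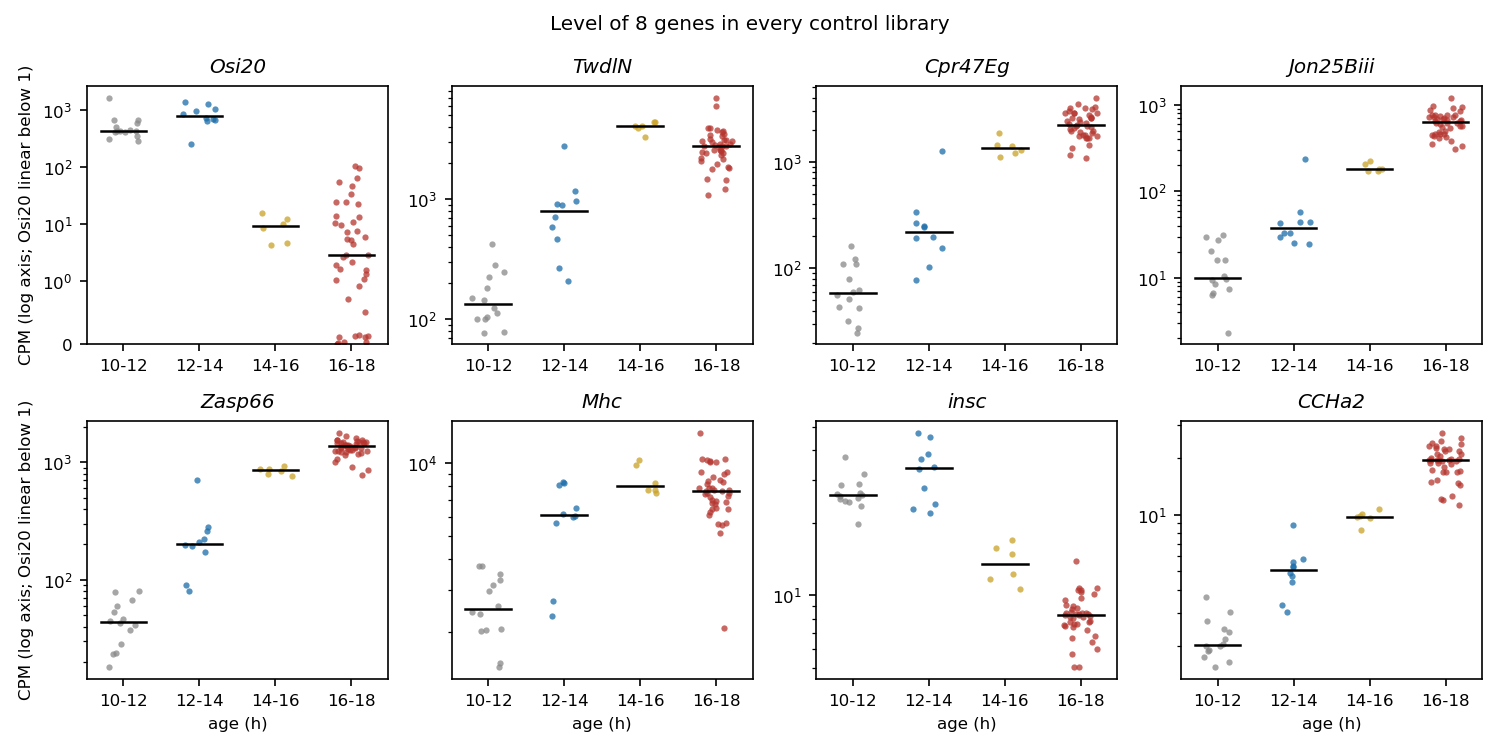
CPM of 8 genes (y axes, logarithmic, and linear below 1 for Osi20) in every control library (points) at 4 ages in hours, with the median of each age as a bar. Osi20 and insc fall and Jon25Biii, Zasp66 and CCHa2 rise with no overlap between 12-14 and 16-18 h, while Mhc overlaps and TwdlN has its highest mean at 14-16 h.

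Genes of the steroid hormone ecdysone, which triggers moults, changed in both directions. Of 18 genes of its receptor and response cascade 8 were lower and 2 higher, against 9.03% and 15.3% of all genes. Only 1 was higher without the onecut_scro_ss or the zfh2_Sox102F_Hr3 set. Cyp18a1, which breaks ecdysteroids down, had 56.6, 168 and 214 CPM at 12-14 h and 6.01, 16.1 and 51.5 CPM at 16-18 h with no overlap (-3.07 ± 0.19), and ftz-f1, a nuclear receptor that follows the hormone pulse, fell, at -2.38 ± 0.24. Eip75B rose instead (2.59 ± 0.25), with a mean of 124 CPM at 10-12 h, 34.1 at 12-14 h, 119.6 at 14-16 h and 214 at 16-18 h. shd, the last enzyme of hormone synthesis, rose from a median of 0.506 to 10.5 CPM with no overlap (3.54 ± 0.26).

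Of 18 tracheal genes 5 were lower, among them Gasp, serp and verm, which the chitin list also holds, and uif (-2.17 ± 0.15). Of 18 hemocyte genes 2 were higher and 4 lower (median -0.38). The prophenoloxidases PPO1 and PPO2 of crystal cells fell, at -3.78 ± 0.19 and -2.84 ± 0.16 with no overlap, and Pxn and NimC4 (whose gene overlaps nAChRalpha5) were the others that fell, while Hml and eater, genes of larval plasmatocytes, rose by 2.84 ± 0.27 and 3.76 ± 0.34. Of 16 fat body genes 5 were higher and 1 lower; FASN1, the fatty acid synthase, and Gpdh1 of glycerol metabolism rose by 3.03 ± 0.30 and 3.19 ± 0.26. Of 19 glial genes 3 were higher and 1 lower, with the sugar transporter Tret1-1 of the blood-brain barrier at 2.45 ± 0.20 and glutamine synthetase Gs2 at 1.73 ± 0.17. Beside the counts of these lists, 15.3% of all genes tested were higher and 9.03% lower.

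Among families beyond these tissues, some held many calls and others none. Of 78 cytochrome P450 genes, enzymes of hormones, lipids and toxins, 37 were higher and 10 lower, against 15.3% and 9.03% of all genes. Cyp4p1 and Cyp28d1 rose by 2.92 ± 0.18 and 2.64 ± 0.20, and Cyp304a1 fell, at -4.47 ± 0.36, all with no overlap. Of 51 odorant-binding proteins 31 had enough reads to test, and 20 were higher and 5 lower. Obp44a rose by 1.93 ± 0.21 and Obp83g fell, at -3.12 ± 0.18. Within the 5 sets sampled at both ages 26 were tested, with 16 higher and 5 lower. Of the receptors for smell and taste, 38 of 187 had enough reads to test. No Hox gene of 8 and no cytoplasmic ribosomal protein of 88 was called by edgeR or DESeq2, while 6 and 62 of them had an unadjusted p under 0.05. Of the Hox genes 6 passed the adjusted p as lower, and of the ribosomal proteins 73 passed it as higher and 1 as lower, with less than a 2-fold change. Of 18 Notch pathway genes 5 were lower, against 9.03% of all genes, all of them in the E(spl) complex of Notch targets.

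By the rule of the largest changes among genes with no overlap and a mean of at least 10 CPM at the higher age, the 10 largest rises were in CG43390, Jon99Ciii, l(3)mbn, CG7299, CG43391, CG10182, CG31104, CG34026, CG12506 and Acbp3. For CG7299 the levels were 8.12, 18.8 and 225 CPM at 12-14 h and 258, 755 and 1530 CPM at 16-18 h (4.22 ± 0.42). CG43390 and CG43391, both short genes on chromosome 3L, at chr3L:11579743-11579950 and chr3L:11580829-11581019, rose by 4.56 ± 0.38 and 4.21 ± 0.40. Acbp3, an acyl-CoA binding protein, rose by 3.99 ± 0.40.

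The 10 largest falls were in TwdlQ, Tb, CG15740, CG7201, TwdlF, Osi20, Osi19, CG15731, CG13048 and CG32548, and thus held 2 Tweedle genes, 2 Osiris genes and Tb (Tubby), which encodes a further Tweedle protein but was not on the list of Tweedle genes because of its name. Tb had 90.6, 228 and 322 CPM at 12-14 h and 0, 0.482 and 20.6 CPM at 16-18 h (-6.26 ± 0.65, edgeR adjusted p = 2.1e-12). CG15740 and CG15731, genes of the X chromosome with no name beyond their number, fell, at -6.14 ± 0.59 and -5.83 ± 0.58. At 14-16 h the median of CG15731 was 32.5 CPM, between 829.5 CPM at 12-14 h and 4.94 CPM at 16-18 h.

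The control libraries of 14-16 h mostly lay between the ages. Of the 1784 genes that were higher, 1542 had a 14-16 h mean between the means of 12-14 h and 16-18 h, 187 had one above both and 55 one below both. Of the 1053 that were lower, 781 lay between, 171 below both and 101 above both. By 14-16 h a median of 59.3% of the log2 change had taken place among genes that rose and 58.7% among genes that fell. Of the genes that fell, 487 had their highest mean at 10-12 h and 474 at 12-14 h. The 10-12 h and the 14-16 h libraries come from sets with no 12-14 h sample. Age and set therefore cannot be told apart for the steps from 10-12 h to 12-14 h and from there to 14-16 h. Those sets were also sampled at 16-18 h, but the values here use the means of all sets of each age.

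The comparison was repeated within the 5 sets sampled at both ages, 10 libraries against 10, with the set as a covariate; these share the 12-14 h libraries with the main comparison. There, 1617 of 11199 genes (14.4%) were higher and 964 (8.61%) lower. Of the calls made over all control libraries, 1550 (86.9%) and 901 (85.6%) were made again in the same direction and none in the opposite one. The Osiris count was again 17 lower of 17, the Tweedle count 20 lower and 4 higher, and the gut proteases 25 higher of 26.

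The knockdown embryos of the same survey gave a comparison with no library in common. They comprised 25 libraries of 12-14 h and 26 of 16-18 h from 13 TFs, each carrying a hairpin against its TF and compared within it. In these, 1914 of 11332 genes (16.9%) were higher and 909 (8.02%) lower. Of the control calls, 1598 (89.6%) and 833 (79.1%) were made again in the same direction, and none in the opposite one. These are 83.5% and 91.6% of the calls made in knockdown embryos. The knockdown embryos were made with the same driver line, so they are separate samples but not separate genetic backgrounds. Their 13 TFs are those served by the 5 control sets of 12-14 h, so traits shared within a set may recur in both comparisons.

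Between the 5 sets with both ages, levels differed as well as ages. The zfh2_Sox102F_Hr3 libraries of 12-14 h had gut protease sums of 166.9 and 160.8 CPM and thick filament sums of 9953 and 10209 CPM, the lowest of their age, beside Osiris sums (6821 and 5617 CPM) inside the range of the other sets. At 16-18 h the same set had the lowest protease sums of the 42 libraries, 1725 and 1699 CPM. Egg and cell cycle RNA was high in the same libraries. The highest bcd levels of 16-18 h outside this set were 252.3, 234.8, 225.6 and 210.6 CPM, beside protease sums of 5642, 2475, 4104 and 4382 CPM. The part of egg and cell cycle RNA in the values of the zfh2_Sox102F_Hr3 set was not tested beyond the alternatives given above. In CG9876_Hr51 number 1, by contrast, the protease sum of 12-14 h was high. Its protease sum of 1908 CPM and its Osiris sum of 1181 CPM both lay toward those of 14-16 h, whose ranges were 1237 to 1945 CPM and 51.1 to 300.0 CPM.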

How the data were processed

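The deposited values were raw read counts per gene symbol, which the authors made from stranded poly(A) libraries aligned to dm6. The labels name STAR 2.7.3a, HTSeq 0.12.4 and DESeq2 1.24.0. Up to 20 multiple alignments were kept and reads overlapping several genes were left out, per the study's methods, so close copies and overlapping genes are uncertain. Whether strand was used in counting is not given in the sources used here.

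Counts of 17612 symbols were used as deposited, without the 5 summary lines of each file. No 2 control libraries held the same counts. Coordinates and overlaps came from an annotation of the same assembly (16981 symbols matched directly, 574 as synonyms, 57 not). Genes passing edgeR's filter on low counts (minimum count 10) were scaled by the trimmed mean of M-values and tested with the quasi-likelihood test of edgeR 4.0.16 in R 4.3.3, with Benjamini-Hochberg adjustment, after a test on simulated data. That filter can be passed through the reads of either age alone. The tested members of a list can thus include genes with few reads at the other age. CPM values use the same method of scaling, run separately over the control libraries of all ages described. The index uses a pseudocount of 1 CPM and the share of change reached by 14-16 h one of 0.5 CPM. Genes were grouped in 53 lists written from general knowledge. Members and lists were chosen with earlier results of these data known. Named are the 10 largest rises and falls without overlap, members of the lists with large changes, high levels or a known role, and genes of the age and tissue checks. Libraries of the comparison held 18372459 to 100712621 counts, so levels under 1 CPM rest on few reads in the smaller ones. Counting error was not compared with the spread between libraries, and intervals from that spread do not cover other error.

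Titles number the libraries 1 and 2 within a set. Between the ages, deviations of libraries of the same set correlated at 0.108 to 0.753 in 10 pairs with the same number. With the other number the correlations were -0.129 to 0.751, so the ranges largely overlapped and do not show that the number pairs libraries. The SEs and p-values given come from fits without the number; fits with set and number as a block were an alternative. Alternatives were RLE scaling, library totals, no filter, DESeq2 1.42.0, mCherry controls alone, sums per set, leaving out each set, and thresholds of 0.05 and 0.5. The bcd covariate and the removal of libraries that stand apart were added after the data were seen.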

Additional observations from a re-analysis of the deposited data

Results flagged for a closer look

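The library CG9876_Hr51 number 1 at 12-14 h stood apart from the other 9 of its age in 6 measures, by Dixon's ratio of the gap to the nearest library over the whole range (limit 0.466 for 10 libraries). Chance flags about 1 in 20 groups, and 48 were examined. Its summed level of gut serine proteases was 1908 CPM, against 635.3 CPM in the next library (ratio 0.728). Carbohydrases of the gut summed to 873.6 CPM against 501.8 CPM (ratio 0.682), and lysozymes and proteins of the peritrophic matrix to 632.6 CPM against 322 CPM (ratio 0.621). V-ATPase subunits summed to 10427 CPM against 7585 CPM (ratio 0.571), and glycolytic enzymes to 5666 CPM against 4483 CPM (ratio 0.535). Its expression index was 0.41 against -1.06 (ratio 0.697), above the other 9 libraries of 12-14 h and below the 0.65 to 1.06 of the 6 libraries of 14-16 h. The cause was not tested. Without its set, 1955 genes were higher and 1141 lower.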

How the results depend on the processing

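The counts of 1784 higher and 1053 lower genes stayed within 1.5 times under every alternative but the fold threshold. At a log2 fold change of 0.5 the counts were 2882 and 2314, within the 5 sets 2802 and 1906, and in knockdown embryos 3197 and 1915, by construction of the looser threshold. DESeq2 gave 2000 and 1341, library totals 1539 and 1367, and no filter on low counts 2444 and 1535. Leaving out each set gave 1707 to 2038 higher and 925 to 1141 lower. With the set and the number as a replicate block the counts were 1625 and 973, and with the number alone over all libraries 1781 and 1059; pairing moved no count by over 1.5 times. Of 134 named genes, 2278 pairs of gene and alternative (thresholds aside) kept the call in 2184, lost it in 71 and gained it in 14; the other 9 were turned. These were osk at 0.26 within the 5 sets, 0.10 with the replicate block, 0.42 without the zfh2_Sox102F_Hr3 set (-1.97 to 0.42 over all sets left out) and 0.28 without the libraries that stand apart, and pgc at 0.44, 0.34, 1.34 and 0.72 in the same fits (-1.72 to 1.34 over all sets left out) and 0.50 in knockdown embryos. Of all genes called, Mos (-1.12), CG4476 (-1.23) and Hsp26 (-1.17) were called in the opposite direction without that set (1.26, 1.01 and 1.12), Mos also by DESeq2 (1.39). The cause was not tested. The balance of Cpr genes also turned with mCherry controls alone (27 higher, 28 lower) and without the zfh2_Sox102F_Hr3 set (28 and 29).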
